A study of Homo sapiens with 6 samples.

Results

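Fatty acid and glycerolipid synthesis is described here through 41 genes, chosen by symbol and role with earlier results of these data known. They cover the supply of acetyl-CoA, fatty acid synthase, desaturases and elongases, the acyl-CoA synthetases, the enzymes that build triacylglycerol and phosphatidylethanolamine, proteins of the lipid droplet surface, and the transcription factor MLXIPL. All 41 were found among the 18164 genes of the deposited table, and 40 had at least 1 TPM (a length-corrected share of all transcripts, with the same total in every library) in at least 3 of the 6 libraries and were tested. ACSL5, a long-chain acyl-CoA synthetase gene, was the exception, with 0.34 to 0.64 TPM with transfection and 0.18 to 0.43 TPM without.

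RNA was sequenced from HEK293, an established human embryonic kidney line, here a commercial line grown in suspension. The transfected group (3 libraries) had received a pair of plasmids with a polymer reagent to make adeno-associated virus (AAV) and was collected 18 h later. The untransfected group (3 libraries) was the same line, given PBS in place of DNA and reagent and collected at the same time. Effects of the DNA, the reagent and vector production therefore cannot be told apart, and the labels do not say whether the replicates were separate cultures, so a p-value here rests on differences among libraries of a group that may be technical.

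Fatty acids are made in the cytosol from acetyl-CoA, which acetyl-CoA carboxylase converts to malonyl-CoA and fatty acid synthase assembles into palmitate. Elongases and desaturases in the endoplasmic reticulum then lengthen and unsaturate the chains, and acyltransferases, lipins and DGAT enzymes place them on glycerol. Many of these genes are known targets of SREBP-1, a membrane-bound transcription factor that is released by proteolysis, and SREBP-2 does the same for cholesterol synthesis. Producer cells need new membrane lipid to grow, and lipid droplets store the surplus.

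Libraries of the 2 groups separated on the first principal component, which held 63.7% of the variance. On the second, which held 16.6%, transfected replicate 1 (13.7) and untransfected replicate 3 (17.6) lay far from the rest (-12.2 to -5.25). Mitochondrially encoded mRNAs (13 genes) took 27.1% to 30% of TPM in transfected libraries and 30% to 36.4% in untransfected libraries, with the highest value in untransfected replicate 3. Of 8 genes typical of HEK293, 7 were listed and 6 tested. Their summed level was 351.2 to 386.1 TPM with transfection and 241.2 to 277.9 TPM without. LIN28B alone had means of 210.2 TPM (transfected) and 145.4 TPM (untransfected). In the test described below 5 of the 6 rose, where 20% of all tested genes did so, and PAX2 did not pass (log2 fold -0.05). PAX8 was not among the listed genes and LHX1 stayed under 1 TPM in every library. Of 7 markers of fat cells, which would express many of the lipid genes strongly, ADIPOQ, LEP, FABP4 and CIDEC were not listed, and the summed level of the other 3 was 7.17 to 8.54 TPM with transfection and 7.28 to 7.75 TPM without.

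In transfected cells, 14 of the 40 tested members fell and 0 rose (limma on log2(TPM + 1), Benjamini-Hochberg adjustment over all 16145 tested genes, threshold 0.05). The 14 were ACLY, ACSS2, FASN, SCD, SCD5, FADS2, ELOVL6, TECR, ACSL4, LPIN3, DGAT1, PCYT2, PLIN3 and PNPLA3. They make up 35% of the members, where 10.2% of all tested genes were lower. The 0 higher members stand against 20% of all tested genes that were higher. As the members were chosen with earlier results of these data known, these shares are a description and not a test. The falls were moderate, from 14.3% to 28.7% of the untransfected mean TPM, with adjusted p of 0.00157 to 0.0329. The median log2 fold of the 40 members was -0.07 (from -0.47 to 0.30), and that of all tested genes was 0.05.

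All 3 transfected values lay below all 3 untransfected values for 18 members, the 14 that fell and FADS3, ELOVL1, AGPAT2 and AGPAT3, where 17.3% of all tested genes did so. The reverse held for 3 members, ACSS1, ELOVL5 and PLIN2, where 29.2% of all tested genes did so. Of the 26 members that did not pass, PLIN2 had the lowest adjusted p (0.0706). These are bulk measurements, in which fewer cells that express a gene and less of its RNA per cell cannot be told apart.

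The call counts were read under other scalings and without single libraries. Removing the trends of each library with GC content and transcript length, an alternative added once the data had been seen, gave 18 lower members, the 14 among them, but also raised the share of all genes called lower to 21.8%. The GC content of the longest GENCODE transcript was 54.3% in the median of the 14 and 48.1% in the median of the other 26, while over all genes it was 57.3% for those lower and 46.8% for those higher. The deposited scale has more genes higher than lower, and this split depends on the scaling: 18.6% were higher and 17.8% lower after median-ratio scaling, and 16.3% and 19.3% after rescaling without mitochondrial and the 20 most abundant genes. On these scales 17 and 17 members were lower and 0 higher. With both libraries that stood apart left out, 14 members were lower, 13 of them the same genes, and ELOVL5, HACD2 and PLIN2 were higher.

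Promoters of the members that fell are shown because SREBP acts on its targets together with the CCAAT-binding factor NF-Y. The 250 bases before each RefSeq start (GRCh38.p14) were searched on both strands for the SREBP-type motif TCACNCCA and for the CCAAT box, CCAAT. The promoter table holds 58 starts for 34 of the members, and has no entry for FASN, LPIN3, PNPLA3, DGAT1, DGAT2, HSD17B12 and AGPAT5. A CCAAT box was found at 9 of the 15 starts of members that fell (60%), at 14 of the 41 starts of tested members that did not pass (34.1%) and at 32% of all 35116 starts. TCACNCCA was found at 2, 1 and 1124 of the same starts (13.3%, 2.44% and 3.2%). Counted by gene, a CCAAT box was found in 7 of 10 members that fell, in 11 of 23 that did not pass and in 10102 of all 27305 genes. Whether these shares differ was not tested. These are matches of letters, several starts of a gene overlap, and binding was not measured.

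Below are the stretches from the first to the last match with up to 20 bases on each side (2 for PLIN3), 5′ to 3′ on the gene's strand, with matches on either strand in capitals (ATTGG is CCAAT on the other strand).
SCD, chr10:100346984-100347071, plus strand: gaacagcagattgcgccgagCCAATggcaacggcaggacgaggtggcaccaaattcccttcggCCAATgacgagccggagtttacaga
SCD5, chr4:82798907-82798951, minus strand: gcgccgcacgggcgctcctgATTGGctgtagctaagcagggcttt
ACLY, chr17:41919023-41919107, minus strand: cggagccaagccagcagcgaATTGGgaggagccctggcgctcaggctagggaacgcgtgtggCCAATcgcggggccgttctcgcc
ACSS2, chr20:34874846-34874890, plus strand: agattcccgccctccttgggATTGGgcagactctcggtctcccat
PCYT2, chr17:81911465-81911649, minus strand: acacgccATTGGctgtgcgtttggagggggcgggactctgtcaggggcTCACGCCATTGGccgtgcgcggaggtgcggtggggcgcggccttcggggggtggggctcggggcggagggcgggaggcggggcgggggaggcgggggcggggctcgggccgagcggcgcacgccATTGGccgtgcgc
PLIN3, chr19:4867718-4867746, minus strand: tgATTGGtcccctcgcccgTCACTCCAgt

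The 2 SREBP-type matches among the members that fell were in PCYT2, where the match begins 202 bases before the start and overlaps a CCAAT box, and in PLIN3, where it begins 60 bases before the start. SCD holds 2 CCAAT boxes, ACLY 2, PCYT2 3 and TECR, whose stretch lies in annotated exons and is not shown, 4. ACSL4, ELOVL6 and FADS2 had no match to either motif in this window. The PLIN3 stretch lies in an exon in GENCODE, in which that gene begins further upstream, and is held to 29 bases.

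Acetyl-CoA for fatty acid synthesis comes from citrate through ACLY and from acetate through ACSS2, and both genes fell. ACLY, ATP citrate lyase (ENSG00000131473, GRCh38 chromosome 17, 41866908 to 41930542), was at 491, 492 and 517 TPM in transfected replicates 1 to 3 and at 599, 604 and 557 TPM in untransfected replicates 1 to 3. The groups did not overlap, and the mean fell by 14.8%, from 587 ± 25.7 to 500.2 ± 14.8 TPM (values after ± are SDs over 3 libraries throughout). Its log2 fold was -0.23 (SE 0.058, adjusted p = 0.0196). This call was lost without transfected replicate 1 or 2 or without untransfected replicate 1 or 2 (adjusted p of up to 0.0777).

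ACSS2, the acetyl-CoA synthetase of cytosol and nucleus (ENSG00000131069, chromosome 20, 34872146 to 34927962), was at 16.8, 19.9 and 19.9 TPM with transfection and 23.9, 27.2 and 22.9 TPM without. Transfected replicate 1 was the lowest of the 6 and the groups stayed apart, with a log2 fold of -0.37 (SE 0.094, adjusted p = 0.0211), lost without transfected replicate 1 or untransfected replicate 2 (adjusted p of up to 0.0641). Its mitochondrial counterpart ACSS1 was at 6.86 ± 0.233 TPM with transfection and 6.01 ± 0.573 TPM without and did not pass (log2 fold 0.17, adjusted p = 0.202).

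Fatty acid synthase fell, and the carboxylases that feed it did not pass. FASN, the multifunctional enzyme that makes palmitate (ENSG00000169710, chromosome 17, 82078333 to 82098332), was at 240, 217 and 220 TPM with transfection and 275, 286 and 307 TPM without. Every transfected library was below every untransfected library, the mean fell by 22%, and the log2 fold was -0.36 (SE 0.065, adjusted p = 0.00555). The FASN transcript is GC-rich (65.3%), and with GC and length trends removed the log2 fold was -0.21 and still passed (adjusted p = 0.00172).

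ACACA, the acetyl-CoA carboxylase of the cytosol, was at 38.7, 41.9 and 40.2 TPM with transfection and 39, 38.8 and 36.7 TPM without. The groups overlapped (log2 fold 0.07, SE 0.06, adjusted p = 0.381). ACACB, the carboxylase of the mitochondrial surface that restrains fatty acid oxidation, had means of 5.14 ± 0.179 TPM (transfected) and 5.10 ± 0.618 TPM (untransfected) (log2 fold 0.01, adjusted p = 0.937). MLXIPL, the carbohydrate-responsive factor ChREBP that drives lipogenic genes in liver, was at 12 ± 1.07 and 13.8 ± 1.45 TPM (log2 fold -0.18, adjusted p = 0.198), and its groups overlapped.

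**Figure D1:**
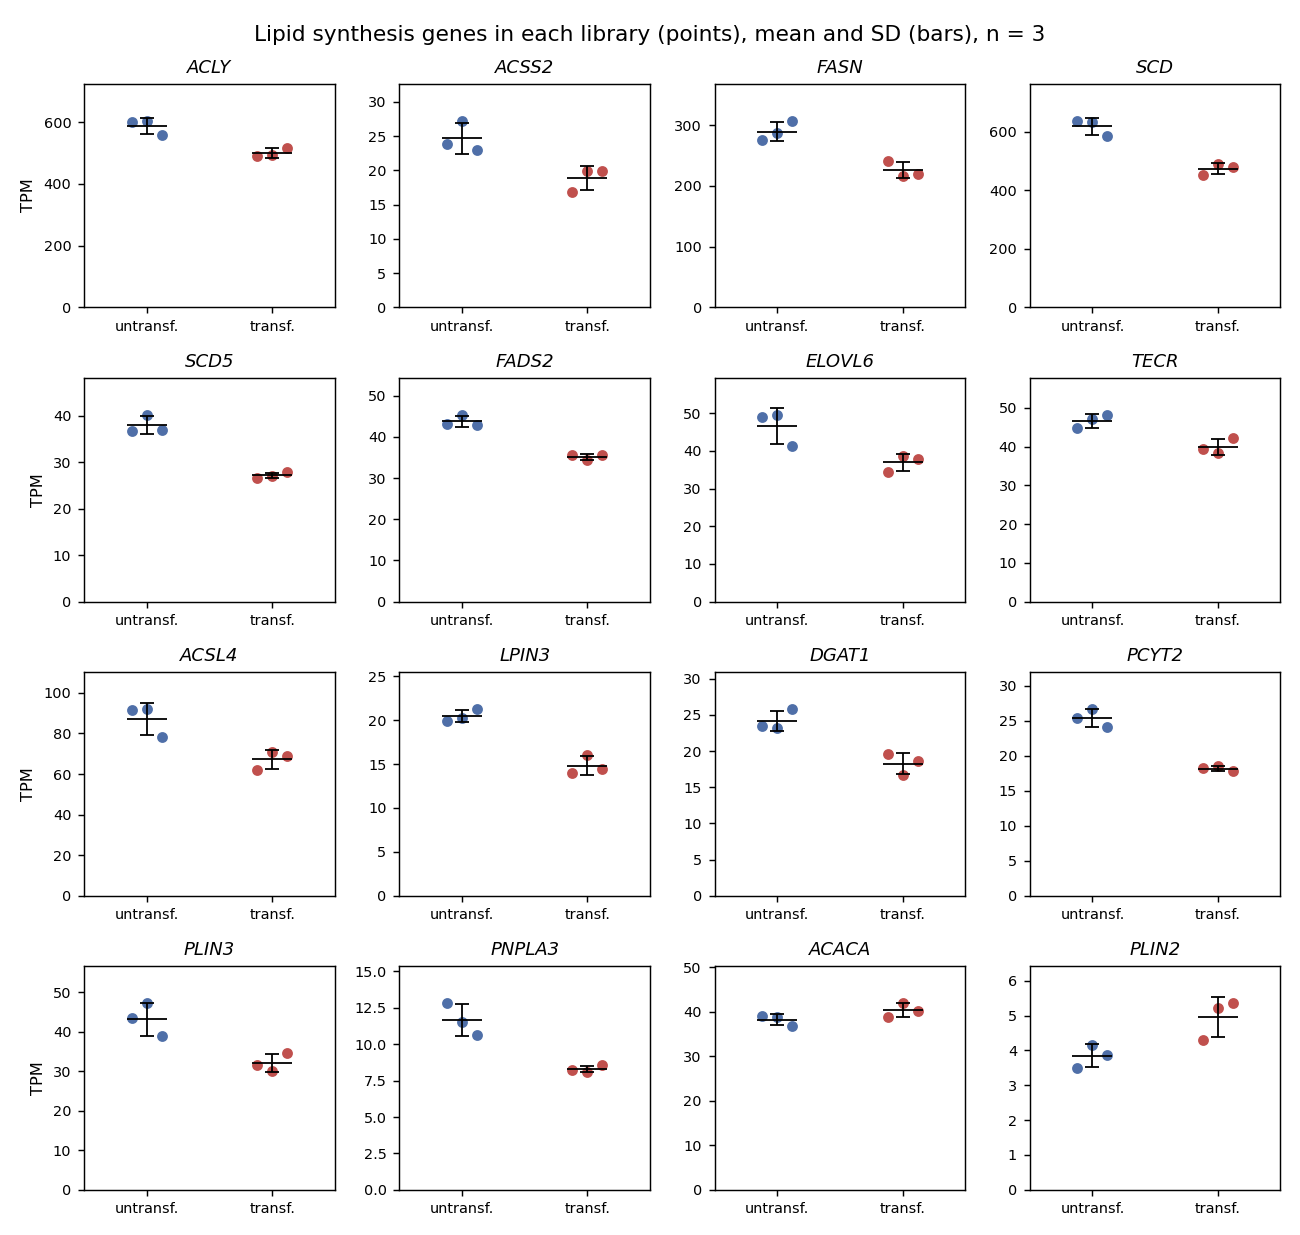
TPM (y axis, from 0) of 16 members in each untransfected (blue) and transfected (red) library; points are libraries, in the order of replicates 1 to 3, and bars are mean and SD. The 14 members that fell show no overlap of groups, while ACACA overlaps and PLIN2 lies higher in transfected libraries (4.31 to 5.35 against 3.50 to 4.15 TPM) without passing the threshold.

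Of the 5 desaturase genes 3 fell, and all 5 log2 folds were below 0. SCD, the stearoyl-CoA desaturase that makes oleate and palmitoleate (ENSG00000099194, chromosome 10, 100347124 to 100364834), was among the most abundant members, at 452, 489 and 481 TPM with transfection and 637, 633 and 586 TPM without. The nearest values of the groups were 489 and 586 TPM, and the log2 fold was -0.38 (SE 0.061, adjusted p = 0.00309).

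SCD5, a second stearoyl-CoA desaturase that rodents lack (ENSG00000145284, chromosome 4, 82629539 to 82798857), was at 26.7, 27.1 and 27.8 TPM with transfection and 36.8, 40.2 and 37 TPM without. It had the most negative log2 fold of the 40 members, -0.47 (SE 0.062, adjusted p = 0.00157), a fall of 28.4% in the mean. SCD made up 94% to 94.8% of their summed TPM in all 6 libraries.

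FADS2, which carries out the first desaturation of polyunsaturated fatty acids (ENSG00000134824, chromosome 11, 61792980 to 61867354), was at 35.6, 34.3 and 35.7 TPM with transfection and 43.1, 45.3 and 42.9 TPM without. The values within each group lay close together and the mean fell by 19.6% (log2 fold -0.31, SE 0.056, adjusted p = 0.0056). FADS1, the next desaturase of that pathway and a head-to-head neighbour of FADS2, had means of 49.1 ± 0.881 TPM (transfected) and 49.8 ± 2.67 TPM (untransfected), with overlapping groups (log2 fold -0.02, adjusted p = 0.853). Exons of the 2 genes overlap on opposite strands over 4.79% of FADS1 and 4.44% of FADS2, and the strand setting of the counting is not given in the sources used here. FADS3 was at 15 ± 1.04 and 17.1 ± 0.751 TPM and did not pass (log2 fold -0.18, adjusted p = 0.106).

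Of the 6 elongase genes, ELOVL6 passed on deposited TPM. ELOVL6, which lengthens palmitate to stearate (ENSG00000170522, chromosome 4, 110045846 to 110199199), was at 34.4, 38.6 and 37.9 TPM with transfection and 49, 49.5 and 41.2 TPM without. Untransfected replicate 3 came closest to the transfected values, and the log2 fold was -0.32 (SE 0.086, adjusted p = 0.0253). The call was lost without each library in turn, except untransfected replicate 3 (adjusted p of up to 0.085).

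ELOVL5, which lengthens polyunsaturated chains and was the most abundant elongase gene, was at 164, 187 and 173 TPM with transfection and 160, 155 and 149 TPM without. Its groups did not overlap, in the direction opposite to ELOVL6, but it did not pass (log2 fold 0.17, SE 0.064, adjusted p = 0.0788). Without both libraries that stood apart it did (adjusted p = 0.0273). ELOVL1, an elongase of saturated very long chains, had means of 50.3 ± 3.86 TPM (transfected) and 57.5 ± 2.61 TPM (untransfected) (log2 fold -0.19, adjusted p = 0.0764). It passed as lower in 4 of the 17 alternatives: median-ratio scaling, quantile normalization, rescaling, and removal of GC and length trends (adjusted p of 0.00679 to 0.0133). The remaining elongases overlapped between groups, with log2 folds of 0.08 for ELOVL2, 0.04 for ELOVL4 and 0.07 for ELOVL7.

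After each round of elongation, a reductase, a dehydratase and a further reductase complete the cycle. TECR, the enoyl reductase of the last step (ENSG00000099797, chromosome 19, 14517085 to 14565980), was at 39.4, 38.3 and 42.3 TPM with transfection and 44.7, 47.1 and 48.2 TPM without. The gap between the groups was narrow (log2 fold -0.22, SE 0.063, adjusted p = 0.0329), and the call was lost when any single library was left out (adjusted p of up to 0.118).

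HACD3, a dehydratase gene and the most abundant of the cycle, was at 188, 209 and 207 TPM with transfection and 210, 204 and 188 TPM without. The values spanned the same range in both groups on deposited TPM (adjusted p = 0.966), while after quantile normalization the log2 fold was -0.14 and with GC and length trends removed -0.11, and both passed (adjusted p = 0.0281 and 0.0267). The other dehydratase genes, HACD1 (8.14 ± 1.14 and 7.68 ± 0.423 TPM) and HACD2 (58.9 ± 3.51 and 51.8 ± 4.54 TPM), and the ketoacyl reductase gene HSD17B12 (36.4 ± 4.21 and 32.6 ± 4.54 TPM) did not pass (transfected and untransfected means, log2 folds of 0.07, 0.18 and 0.16). HSD17B12 shares 21.6% of its exonic bases with other genes.

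Acyl-CoA synthetases activate free fatty acids, and 1 of the 3 tested fell. ACSL4, which prefers arachidonate (ENSG00000068366, chromosome X, 109624244 to 109733403), was at 62.1, 70.8 and 68.9 TPM with transfection and 91.5, 92 and 78.2 TPM without. The highest transfected value was 70.8 and the lowest untransfected value 78.2 TPM, with a log2 fold of -0.37 (SE 0.082, adjusted p = 0.0122). ACSL3, a lipid droplet synthetase, was at 37.6 ± 3.27 TPM with transfection and 37.6 ± 2.10 TPM without (adjusted p = 0.997).

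ACSL1, the main synthetase of fat and liver, was at 29.9, 34.3 and 31.3 TPM with transfection and 30.1, 26.9 and 22.3 TPM without. Its groups overlapped by a small margin (log2 fold 0.27, SE 0.11, adjusted p = 0.0975), and without untransfected replicate 1 it passed (adjusted p = 0.0458).

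None of the genes for the first acylations of glycerol passed on deposited TPM. GPAM, the mitochondrial glycerol phosphate acyltransferase, had means of 23.4 ± 1.45 TPM (transfected) and 22.7 ± 2.46 TPM (untransfected). The lysophosphatidate acyltransferase genes AGPAT1, AGPAT2, AGPAT3 and AGPAT5 had log2 folds of -0.14, -0.10, -0.12 and 0.06 (adjusted p of 0.19 to 0.707). AGPAT1 passed as lower in 4 of the 17 alternatives: median-ratio scaling, rescaling to a total that leaves out mitochondrial and the 20 most abundant genes, removal of GC and length trends, and omission of both libraries that stood apart. AGPAT3 passed as lower in the first and second of these (adjusted p = 0.0356 and 0.0211). AGPAT1 shares 30.2% of its exonic bases with other genes, PPT2-EGFL8 on the opposite strand above all.

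Lipins remove the phosphate to give diacylglycerol, and DGAT enzymes add the last acyl chain. LPIN3 (ENSG00000132793, chromosome 20, 41340920 to 41360582) was at 14, 16 and 14.5 TPM with transfection and 19.9, 20.2 and 21.3 TPM without. The groups were well apart (log2 fold -0.44, SE 0.074, adjusted p = 0.00391), and 13.5% of its exonic bases overlap EMILIN3 on the opposite strand. LPIN1 (19.2 ± 1.13 and 19.8 ± 1.10 TPM) and LPIN2 (13.7 ± 0.601 and 14 ± 1.23 TPM) overlapped between groups, with log2 folds of -0.05 and -0.03.

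DGAT1, a diacylglycerol acyltransferase of the endoplasmic reticulum (ENSG00000185000, chromosome 8, 144314584 to 144326910), was at 19.5, 16.7 and 18.6 TPM with transfection and 23.5, 23.3 and 25.8 TPM without. It fell by 24.4% in the mean (log2 fold -0.39, SE 0.081, adjusted p = 0.00936), and 11.1% of its exonic bases are shared with other genes. DGAT2, an unrelated enzyme with the same reaction, was low in both groups, at 1.66 ± 0.175 and 1.67 ± 0.216 TPM (adjusted p = 0.982). DGAT1 made up 91.4% to 91.9% of the summed TPM of the pair in transfected and 92.5% to 94.5% in untransfected libraries.

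PCYT2, the enzyme that sets the pace of phosphatidylethanolamine synthesis (ENSG00000185813, chromosome 17, 81900965 to 81911464), was at 18.2, 18.5 and 17.8 TPM with transfection and 25.5, 26.7 and 24.1 TPM without. The 3 transfected values lay within 1 TPM of each other and the mean fell by 28.4% (log2 fold -0.46, SE 0.066, adjusted p = 0.0021). Overlaps with NPB and another gene take 28.1% of its exonic bases.

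On the lipid droplet surface, PLIN3 and PNPLA3 fell and PLIN2 did not pass. PLIN3, a perilipin that moves from cytosol to nascent droplets (ENSG00000105355, chromosome 19, 4838341 to 4867768), was at 31.5, 30.1 and 34.6 TPM with transfection and 43.4, 47.2 and 38.8 TPM without. Its log2 fold was -0.41 (SE 0.086, adjusted p = 0.0094), and 17.9% of its exonic bases overlap an antisense gene.

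PNPLA3, a lipase and acyltransferase of droplets known as an SREBP-1 target (ENSG00000100344, chromosome 22, 43923739 to 43964488), was at 8.25, 8.12 and 8.56 TPM with transfection and 12.8, 11.5 and 10.6 TPM without. No other member fell by a larger percentage of its mean (28.7%), with a log2 fold of -0.44 (SE 0.086, adjusted p = 0.00742).

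PLIN2, a perilipin that is bound to droplets throughout, was at 4.31, 5.21 and 5.35 TPM with transfection and 3.50, 4.15 and 3.88 TPM without. It had the highest log2 fold of the 40 members, 0.30 (SE 0.11, adjusted p = 0.0706), and passed without transfected replicate 1 (adjusted p = 0.0439). The share of PLIN2 in the summed TPM of PLIN2 and PLIN3 was 12%, 14.7% and 13.4% in transfected and 7.46%, 8.08% and 9.08% in untransfected libraries. As PLIN3 fell, this share would be larger even with PLIN2 unchanged.

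Shares within a gene family do not change when a library is multiplied by a single factor, but quantile normalization and removal of GC and length trends can shift them. ELOVL6 made up 9.99%, 10.1% and 10.2% of the summed TPM of the 6 elongase genes in transfected and 13.4%, 13.2% and 12.3% in untransfected libraries. ACSL4 made up 49%, 48.5% and 49.6% of the 4 ACSL genes in transfected and 56.7%, 58.6% and 57.4% in untransfected libraries. Neither share overlapped between groups.

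Lower shares in transfected libraries, with no overlap, were also found for ACSS2 of ACSS1 and ACSS2 (70.8% to 75.1% against 78.1% to 81.7%), for FADS2 of the 3 FADS genes (35.1% to 35.7% against 38.4% to 40.4%) and for LPIN3 of the 3 lipins (29.8% to 32.2% against 36% to 40.5%), as for DGAT1 above. ELOVL5 held a higher share of the 6 elongase genes, also with no overlap (46.6% to 48.7% against 41.2% to 44.3%). The share of ACACA in the summed TPM of ACACA and ACACB overlapped (88.1% to 89.5% against 87% to 89.9%). With 3 libraries a group these shares were compared by overlap alone and not tested. ACSS2, FADS2, ELOVL6, ACSL4, LPIN3 and DGAT1 had been called lower from the same TPM values. Their lower shares are therefore no separate evidence of a fall.

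SCD, ACLY and FASN together made up 47.1% to 52.9% of the summed TPM of the 41 members. Their sum was 1183.8, 1198.4 and 1218 TPM with transfection and 1511.8, 1523.7 and 1450.5 TPM without. For the other 38 members it was 1242.5, 1346 and 1337.1 TPM and 1405.8, 1423.7 and 1292.9 TPM, and these overlapped between groups. The overlap came from untransfected replicate 3 alone, and the 38 include the rest of the members that fell.

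Other genes around the pathway were read from lists of regulators, neighbouring enzymes and fatty acid oxidation, beside 10.2% of all tested genes lower and 20% higher on deposited TPM. After median-ratio scaling, quantile normalization and rescaling without mitochondrial and the 20 most abundant genes, 17.8%, 17.9% and 19.3% of all tested genes were lower. Of 18 tested regulators 7 fell (38.9%) and 1 rose. INSIG1, the sterol-regulated anchor of the SREBP complex, was at 334, 400.3 and 418 TPM with transfection and 699, 692 and 551 TPM without (log2 fold -0.75, adjusted p = 0.00279). PPARD, a fatty acid-sensing nuclear receptor, fell from 31.8 ± 2.70 to 21.8 ± 0.712 TPM (log2 fold -0.52), and MBTPS2, a protease that releases SREBP from the membrane, rose from 24.5 ± 2.46 to 33.6 ± 2.28 TPM (0.44). MBTPS1, the other protease of this release, was picked after its values were seen. It fell from 57.1 ± 2.38 to 46.7 ± 1.6 TPM (log2 fold -0.28, adjusted p = 0.0094). The SREBP genes themselves, picked after their values were seen, fell slightly. SREBF1 had a log2 fold of -0.32 (adjusted p = 0.027) and SREBF2 of -0.19 (adjusted p = 0.028). The calls of MBTPS1, SREBF1 and SREBF2 under the alternatives were not listed gene by gene. Over the alternatives, 5 to 7 regulators were lower.

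Other genes of fatty acid synthesis and activation had 5 lower and 3 higher of 20 tested (25% and 15%, against 10.2% and 20% of all tested genes). SLC25A1, the mitochondrial carrier that exports the citrate used by ACLY, was at 80.2, 69.4 and 78.7 TPM with transfection and 111, 115 and 112 TPM without (log2 fold -0.57, adjusted p = 0.00104). HSD17B8, a subunit of the ketoacyl reductase of mitochondrial fatty acid synthesis, fell from 22.2 ± 2.47 to 15.6 ± 1.20 TPM. The acyl-CoA synthetase gene ACSBG1, 1 of the 3 higher calls, was at 1.07 to 1.55 TPM in transfected and 0.13 to 0.22 TPM in untransfected libraries. It met the filter on low values through the transfected libraries alone, so that its test depends on the group in which it is high.

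Genes of glycerolipid synthesis outside the 41 had 2 lower and 2 higher of 16 tested (12.5% each), a lower share near that of all genes. On the 3 other scales named above 5, 5 and 6 were lower and 2, 2 and 2 higher. LPCAT4, a lysophospholipid acyltransferase gene, fell from 32.3 ± 1.18 to 22.5 ± 1.26 TPM (log2 fold -0.50), and LCLAT1, the lysocardiolipin acyltransferase gene, rose from 17.7 ± 0.321 to 24.1 ± 0.874 TPM (0.43). GPD1, the cytosolic glycerol phosphate dehydrogenase gene, was at 1.79 to 2.05 TPM in transfected and 0.42 to 0.86 TPM in untransfected libraries. This call, 1 of the 2 higher, also rests on a gene that met the filter through the transfected libraries alone.

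Phospholipid synthesis had 1 lower and 2 higher of 19 tested (5.26% and 10.5%, against 10.2% and 20% of all tested genes). The direction of this count depends on the scaling, with 7, 6 and 8 lower and 1, 1 and 0 higher on the 3 other scales. ETNK2, an ethanolamine kinase gene one step before PCYT2, fell from 23.6 ± 0.376 to 18.6 ± 1.64 TPM (log2 fold -0.33, adjusted p = 0.0137), a call lost without transfected replicate 2 or 3 (up to 0.0574). PTDSS1 and PISD, which make phosphatidylserine and convert it to phosphatidylethanolamine in mitochondria, rose by log2 folds of 0.24 and 0.19. Their adjusted p were 0.0434 and 0.0337, and both calls were lost without mitochondrial and the most abundant genes in the total (0.0617 and 0.152). Both were also lost with no variance trend (0.0643 and 0.0506) and with the replicate block (0.114 and 0.125). After median-ratio scaling and quantile normalization PTDSS1 passed (0.0429 and 0.0367) and PISD did not (0.0932 and 0.0667). Leaving out any single library ended the call of PTDSS1 (up to 0.164), and any but untransfected replicate 3 that of PISD (up to 0.124).

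Lipid droplet and lipolysis genes had 1 lower and 2 higher of 13 tested (7.69% and 15.4%, against 10.2% and 20% of all tested genes). On each of the 3 other scales 3 were lower and 2 higher. AUP1, a droplet and endoplasmic reticulum protein gene, rose from 163.8 ± 4.71 to 208.1 ± 8.80 TPM (log2 fold 0.34), and BSCL2, the gene for the droplet assembly protein seipin, from 2.30 ± 0.186 to 3.49 ± 0.486 TPM. The BSCL2 call was lost without transfected replicate 2 or 3 or untransfected replicate 2 (adjusted p of up to 0.0799). PLIN5, the 1 lower call, was at 0.47 to 0.52 TPM in transfected and 1.07 to 1.15 TPM in untransfected libraries. It met the filter through the untransfected libraries alone and was not tested when any untransfected library was left out.

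Fatty acid oxidation, the opposing pathway, had 5 lower and 0 higher of 28 tested (17.9% lower). Of all tested genes 10.2% were lower and 20% higher. On the 3 other scales 9 oxidation genes were lower and 0 higher, where 17.8% to 19.3% of all tested genes were lower. ACADVL, the very long-chain acyl-CoA dehydrogenase, was at 97, 96.1 and 101 TPM with transfection and 123, 122 and 122 TPM without (log2 fold -0.32, adjusted p = 0.00276). CPT1C, a neuronal relative of the carnitine palmitoyltransferases, and CROT, the peroxisomal carnitine octanoyltransferase, fell by 0.45 and 0.36 on the log2 scale. The CROT call was lost without transfected replicate 1, 2 or 3 or untransfected replicate 2 (adjusted p of up to 0.0768). Depending on the setting, 2 to 11 oxidation genes were lower.

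Cholesterol synthesis and uptake, the sister pathway under SREBP-2, had 17 lower and 2 higher of 25 tested (68% lower), with a median log2 fold of -0.36 against -0.07 for the 40 tested members. Its log2 folds reached -0.72 for TM7SF2 and -0.68 for MSMO1, both sterol enzymes, and -0.57 for DHCR7, while the most negative among the 40 tested members was -0.47. Whether the 2 sets differ was not tested.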

How the data were processed

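Per the labels' protocols, total RNA was read as stranded pairs of 75 nt. The authors deposited TPM per gene and library; STAR and GRCh38 are named in the submitters' processing notes, and the counting tool, its strand setting and the annotation are unknown here. The deposited table had 18298 rows, of which 134 repeated an Ensembl ID with the same values and were dropped. TPM keeps no depth, so no counting interval can be given, and since the total is fixed, abundant transcripts move all others.

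Genes reaching 1 TPM in 3 or more libraries were compared as log2(TPM + 1) with limma 3.58.1 in R 4.3.3 (group as the only term, variance trend, two-sided); fold changes on this scale understate those of low genes. Alternatives were other pseudocounts, filters and scalings, no trend, a replicate block, left-out libraries and, added later, removal of GC and length trends. Positions, overlaps and GC come from GENCODE release 29 (17706 of 18164 IDs matched), promoters from RefSeq GRCh38.p14. The members and lists were chosen with earlier results of these data known. Named with all values were members that passed with an absolute log2 fold of at least 0.3 and the 5 most abundant; per list, up to 3 genes that passed, by size. Other values were chosen after they were seen. Fibroblast, leukocyte and hepatocyte markers summed to 22.9 to 26, 1.72 to 2.76 and 0.73 to 1.13 TPM in transfected and to 28.5 to 33.1, 0.64 to 1.29 and 0.05 to 0.21 TPM in untransfected libraries.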

Additional observations from a re-analysis of the deposited data

How the results depend on the processing

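Over 17 alternatives, 10 to 18 members were lower, within 1.5 times the 14 reported; leaving out single libraries gave 10 to 13. Members higher were 0 except without transfected replicate 1 (1, PLIN2), without untransfected replicate 1 (1, ACSL1) and without both libraries that stand apart (3); leaving out single libraries thus gave 0 to 1. The median log2 fold of the members was -0.14 after median-ratio scaling, -0.15 after quantile normalization and -0.16 after rescaling without mitochondrial and the most abundant genes, and the medians of all genes were then -0.01, -0.01 and -0.03; all genes called lower made up 17.8%, 17.9% and 19.3%, and members 17, 16 and 17 of 40. Only HACD3 changed sign with a call, at -0.14 after quantile normalization and -0.11 with GC and length trends removed; members that did not pass under either setting changed sign in 45 instances over 15 genes. The calls of FASN, SCD, SCD5, FADS2, ACSL4, LPIN3, DGAT1, PLIN3, PNPLA3 and PCYT2 held in all 17. Of the related lists, the lower calls ranged from 5 to 7 for regulators, 2 to 7 for other fatty acid genes, 2 to 7 for other glycerolipid genes, 0 to 8 for phospholipid genes, 0 to 4 for droplet genes, 2 to 11 for oxidation genes and 13 to 20 for cholesterol genes. Deviations of same-numbered libraries from their group means correlated weakly, at -0.18, 0.11 and -0.16. Whether the numbers mark pairs is not given in the labels, and these values cannot settle it. With the replicate block 11 members were lower and 0 higher, with a median of -0.07; ACLY, ELOVL6 and TECR were lost. Depth is unknown, so how far it limits low genes such as DGAT2 and ACSL5 cannot be given.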
